A study of Mus musculus with 102 samples.

Results

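Mouse embryonic stem cells that lack the TET proteins (TTKO) and were mock-treated were compared between day 29 and day 13 of culture, with 3 replicates at each time. Every CpG with a methylation level in all 6 samples was used, which gave 387 of the 405 CpGs in the table, in 62 of 65 amplicons. The comparison addresses how far methylation drifted between these days of culture when neither Dnmt3 deletion nor TET activity took part. The cells are a C57BL6/J line, derived by outgrowth of blastocysts, whose Dnmt3a and Dnmt3b alleles are homozygous for loxP sites, and in which Tet1, Tet2 and Tet3 were mutated by CRISPR. The TTKO line goes back to 1 clone. Mock treatment used the Cre dialysis buffer without the Cre protein, so both groups kept Dnmt3a and Dnmt3b intact and differed in their day of culture, which was feeder-free from soon after the treatment onwards. The other sets of amplicon samples serve as a reference: non-transduced TTKO cells at day 0, TTKO cells transduced with Cre, in which most Dnmt3a and Dnmt3b alleles are deleted (by the study's methods a remainder escaped excision), and mock-treated cells of the wild-type parental line, which keep their TET proteins. The series holds 102 samples.

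DNA methylation at a CpG is set by opposing activities. DNMT3A and DNMT3B add methyl groups to unmethylated CpGs, and DNMT1 copies existing methylation to the new strand when DNA is replicated, while TET proteins oxidise methylcytosine and so promote its removal. Regions bound by transcription factors, among them the insulator protein CTCF and the repressor REST, typically hold intermediate methylation and are called low-methylated regions (LMRs), promoters with many CpGs are mostly unmethylated (UMRs), and the bulk of the genome is fully methylated (FMRs).

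In amplicon bisulfite sequencing, unmethylated cytosines are converted, chosen regions are amplified, and a CpG's methylation level is the percentage of its reads that still read as cytosine. The reads summed over CpGs numbered 2352491 to 2564530 per sample at day 13 and 3427459 to 4706462 at day 29, with median coverages per CpG of 4042 to 4635 and 5803 to 7251 reads, so the later samples were the deeper ones. The lowest coverage behind any level tested was 181 reads. Across CpGs, replicates correlated with r = 0.979 to 0.988 at day 13 and 0.990 to 0.993 at day 29, and no library stood apart from its group in these correlations. Left out were 18 CpGs, of which 8 near a CTCF site and 6 in a constitutive LMR lacked a level in day 29 replicate 3, and 4 in a stem-cell-specific LMR lacked one in day 13 replicate 1.

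The sequences of the CpGs on which the results turn are given first, from the mm9 genome (NCBIM37), plus strand, 5′ to 3′. The 2 stretches that follow are the measured parts of the stem-cell-specific LMR amplicons with the single CpG that passed the test and with the largest fall of that class. The first lies in a coding exon of Calhm2, a calcium homeostasis modulator family gene, at chr19:47210058-47210254, and holds 11 measured CpGs. The second lies in an intron of Zfp704, which encodes a zinc finger protein, at chr3:9601410-9601646, and holds 10. Capitals mark the measured CpGs.
Calhm2 exon: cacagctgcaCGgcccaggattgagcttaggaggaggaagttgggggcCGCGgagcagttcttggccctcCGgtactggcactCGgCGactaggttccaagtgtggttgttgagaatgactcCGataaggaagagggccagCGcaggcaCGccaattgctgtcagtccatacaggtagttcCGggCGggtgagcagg
Zfp704 intron: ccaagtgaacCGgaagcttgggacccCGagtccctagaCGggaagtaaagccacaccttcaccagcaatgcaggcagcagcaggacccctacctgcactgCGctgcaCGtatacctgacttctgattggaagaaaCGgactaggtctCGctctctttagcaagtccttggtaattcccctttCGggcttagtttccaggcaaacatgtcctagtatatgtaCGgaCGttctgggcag

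The next sequences are 62-base windows around the other CpGs with the smallest p-values and, last, around the CpG with the largest fall, with the CpG in question in capitals. They lie at a CTCF-bound LMR 23871 bases from Ipcef1 (chr10:3270162-3270223), in an FMR in an intron of Arhgef15 (chr11:68769111-68769172), in a REST-bound LMR in an intron of Tssc1 (chr12:29516180-29516241), in a constitutive LMR in an intron of Akap6 (chr12:54133842-54133903), and in a constitutive LMR 62947 bases from Col1a1 (chr11:94734561-94734622). The window of the CTCF-bound LMR holds 2 CpGs, as does that of the Akap6 intron, and each of the others holds 1.
Near Ipcef1: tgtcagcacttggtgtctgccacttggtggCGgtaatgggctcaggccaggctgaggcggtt
Arhgef15 intron: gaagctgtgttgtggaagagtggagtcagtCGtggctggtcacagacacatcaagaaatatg
Tssc1 intron: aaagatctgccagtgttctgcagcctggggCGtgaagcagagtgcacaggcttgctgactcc
Akap6 intron: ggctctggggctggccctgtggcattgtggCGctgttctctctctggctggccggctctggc
Near Col1a1: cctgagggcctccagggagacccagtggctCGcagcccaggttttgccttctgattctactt

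Mean methylation over the 387 CpGs was lower at day 29 than at day 13. It was 42.6%, 44.1% and 43.3% in the day 13 replicates, and 40.1%, 39.5% and 41.0% in the day 29 replicates. The groups did not overlap. The means were 43.3% ± 0.726 and 40.2% ± 0.755 (SD, n = 3 each), a difference of -3.16 percentage points or -7.29% of the day 13 level (exact permutation test, two-sided, p = 0.1, below which 3 replicates against 3 cannot go). The fall was -3.23 points with each amplicon weighted alike. Methylated reads over all reads gave the opposite sign, +0.225 points (exact permutation test, p = 0.8). Amplicons with a day 13 level of 50% or more held 40.8% ± 0.463 of the day 13 reads and 45.5% ± 4.43 of the day 29 reads (SD, n = 3), and with the same coverage weights in all 6 samples the difference was -2.90 points.

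The fall was small at most CpGs and large at few. Levels were lower at day 29 at 323 CpGs (83.5%) and higher at 64, with a median change of -2.30 points, an interquartile range of -4.85 to -0.533 and a full range of -30.1 to 10.97 points. At 156 CpGs the change was within 2 points, 95 CpGs fell by more than 5 points and 28 by more than 10, and 6 rose by more than 5. The median SD between replicates of a CpG was 2.90 points at day 13 and 1.81 at day 29. Every day 29 replicate lay below every day 13 replicate at 92 CpGs (23.8%) and above at 2 (0.517%).

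Single CpGs were tested by fitting the numbers of methylated and unmethylated reads with a quasi-binomial logistic model, with dispersions moderated by limma and Benjamini-Hochberg adjustment. At an adjusted p under 0.05, 1 CpG fell (0.258%) and 0 rose. At an unadjusted p under 0.05, 69 fell (17.8%) and 2 rose (0.517%), and limma on logit-transformed levels called 0 CpGs at the adjusted threshold with 52 lower and 1 higher at the unadjusted one.

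**Figure D1:**
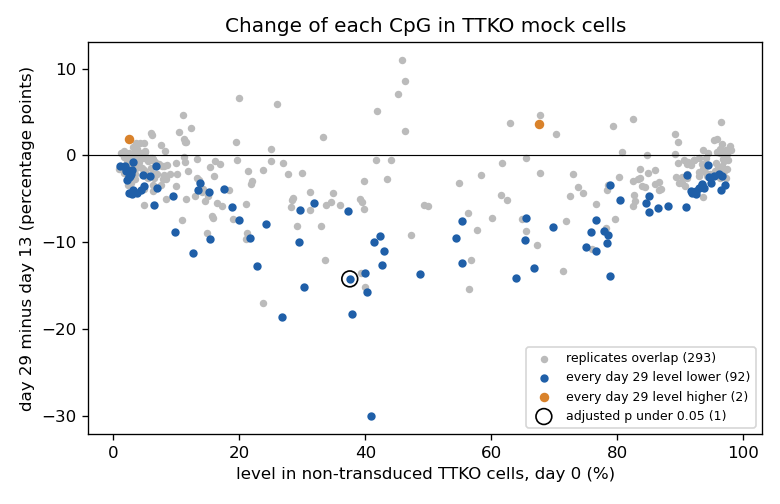
Each point is 1 of the 387 CpGs, placed by its mean level in non-transduced TTKO cells at day 0 (x axis, %) and its change from day 13 to day 29 in mock cells (y axis, percentage points). Blue marks the 92 CpGs whose 3 day 29 levels were all lower, orange the 2 whose levels were all higher, and the ring the CpG in Calhm2. The points below -10 lie mostly at intermediate day 0 levels, and the points near 0% and 100% lie close to the zero line.

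The CpG that passed was chr19:47210243 in the coding exon of Calhm2. Its levels were 56.7%, 51.1% and 49.4% at day 13 and 36.8%, 39.4% and 38.4% at day 29, on 26496 reads or more in each sample. All day 29 levels lay below the lowest level of day 13. The change was -14.2 points, with a log2 odds ratio of -0.85 ± 0.11 (SE, adjusted p = 0.0216 in the quasi-binomial model with limma's moderated dispersion). In the same model the adjusted p was 0.140 without day 13 replicate 2, 0.0655, 0.0600 and 0.124 without day 29 replicates 1, 2 and 3, and 0.147 with the dispersion left unmoderated, and limma on logit levels gave 0.294. At day 0 the level of this CpG had been 37.5%, close to its level at day 29, and the mock means of days 4, 8, 10 and 17 were 48.0%, 51.8%, 45.1% and 49.9%.

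Around it, the other CpGs of the Calhm2 exon changed by less. Of the 11 CpGs, 10 had a lower mean at day 29. The CpG only 4 bases before it, chr19:47210239, went from 65.7% ± 3.00 to 58.4% ± 3.55, with no overlap. The exception was chr19:47210207, at 33.9%, 42.7% and 46.6% on day 13 and 46.3%, 46.6% and 45.7% on day 29. Its day 29 values lay near the highest day 13 values, and the rise of 5.13 points did not pass the test (adjusted p = 0.318, quasi-binomial model). The first CpG, chr19:47210068, spread from 26.9% to 57.3% among the day 13 replicates at 26595 reads or more each.

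The 5 CpGs next in order of p did not pass. In the Zfp704 intron, chr3:9601420 was at 49.0%, 50.2% and 47.8% at day 13 and 36.7%, 28.8% and 34.1% at day 29 (log2 odds ratio -0.90 ± 0.21, adjusted p = 0.141, quasi-binomial model). The groups did not overlap there. In the Akap6 intron, where the gene encodes a scaffold of protein kinase A, chr12:54133872 was at 92.0%, 92.2% and 87.8% and then at 75.8%, 77.0% and 77.5% (-13.9 points, adjusted p = 0.141, quasi-binomial model). The Tssc1 intron CpG, chr12:29516210, was at 63.2%, 63.2% and 60.2% and then at 53.1%, 48.8% and 46.9% (-12.6 points, adjusted p = 0.112, quasi-binomial model). In both introns the groups did not overlap. In the Arhgef15 intron, chr11:68769141 was at 84.9%, 81.5% and 85.2% and then at 74.0%, 74.8% and 76.6% (-8.72 points, adjusted p = 0.112, quasi-binomial model). The CTCF-bound CpG near Ipcef1, chr10:3270192, was at 14.8%, 16.5% and 11.8% and then at 7.42%, 5.06% and 4.15%, which is -8.81 points and a log2 odds ratio of -1.46 ± 0.26 (adjusted p = 0.112, quasi-binomial model). At these 5 CpGs no day 29 level reached a day 13 level.

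The largest fall and the 2 rises without overlap were singled out after their values were seen. At chr11:94734591, near Col1a1, a collagen gene, levels were 75.7%, 71.8% and 58.6% at day 13 and 43.1%, 29.2% and 43.6% at day 29. The fall of 30.1 points came with wide replicate spread (SD 8.94 and 8.19) and 1211 to 2065 reads per sample, and its adjusted p was 0.141 (quasi-binomial model). Within the same amplicon 14 CpGs were measured, and others rose, such as chr11:94734373 with 74.2% ± 15.9 and 78.4% ± 6.69. The 2 rises were chr17:34088044 in a coding exon of B3galt4, a galactosyltransferase gene, from 0.946% ± 0.486 to 2.80% ± 0.976, and chr6:17856304 in an intron of St7, from 67.2% ± 2.37 to 70.9% ± 0.144. Neither passed the test (adjusted p = 0.248 and 0.575, quasi-binomial model).

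By amplicon, mean levels were lower at day 29 in 56 of 62 and higher in 6. Every day 29 replicate was lower in 22 amplicons (35.5%) and every one higher in 0. With reads summed per amplicon, 0 passed the quasi-binomial test (smallest adjusted p 0.0780) and 23 fell at an unadjusted p under 0.05 (37.1%), while limma on logit levels also called 0. The quasi-binomial count was 3 amplicons without day 13 replicate 1 and 4 without day 13 replicate 3. With the replicate number as a block it was 11, but the labels do not say whether a number is 1 culture. All CpGs moved down together in 30 of the 61 amplicons with at least 2 CpGs, and 37.4% of the variance of the change over CpGs lay between amplicons.

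The largest falls were in introns of Akap6 and Zfp704 and at a locus on chromosome 3. The Akap6 amplicon, with 3 CpGs between chr12:54133872 and 54134056, was at 81.7%, 79.6% and 80.5% and then at 65.9%, 70.3% and 71.9% (-11.2 points, adjusted p = 0.0780, quasi-binomial model). A second amplicon in Akap6, with 4 CpGs at chr12:54133624-54133839, changed by -5.95 points. Its replicates overlapped (adjusted p = 0.272, quasi-binomial model). The Zfp704 amplicon was at 66.7%, 66.8% and 65.0% and then at 59.1%, 51.7% and 57.2% (-10.2 points, adjusted p = 0.0780, quasi-binomial model). All 10 of its CpGs fell in mean, from 18.3 points at chr3:9601436 to 2.48 points at chr3:9601510, and the 3 CpGs at its left end fell more than the 4 that follow. The other 3 are adjoining constitutive LMR amplicons at chr3:65259461-65260050, an intergenic locus 51130 to 51598 bases from 4931440P22Rik, so they are not independent places. They changed by -8.25, -7.99 and -7.97 points (adjusted p = 0.236, 0.0812 and 0.122, quasi-binomial model). The first of them rests on 1 CpG, and day 29 values overlapped those of day 13 in the last of them.

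**Figure D2:**
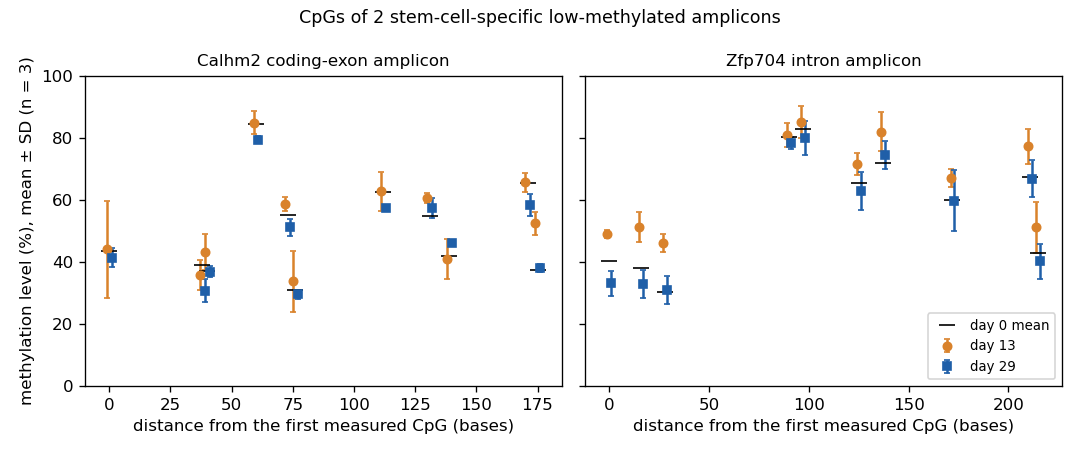
Methylation level (y axis, %) of each CpG in the Calhm2 and Zfp704 amplicons against its distance from the first measured CpG (x axis, bases), as mean ± SD of 3 replicates at day 13 (orange) and day 29 (blue), with the day 0 mean as a dash. In Zfp704 all 10 day 29 means are lower and the gap is widest at the first 3 CpGs, and in Calhm2 the CpG at the right end has the widest gap.

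The 5 amplicons with the largest rises moved little. They were in St7 (2.43 points), 125676 bases from Otor (1.18), 124688 bases from Tcerg1l (0.587), 49339 bases from A430005L14Rik (0.343) and in a coding exon of Zbtb20 (0.156), and their day 13 and day 29 replicates overlapped in each. None passed the test (adjusted p = 0.975, 0.547, 0.660, 0.878 and 0.864, quasi-binomial model), and each changed sign when 1 replicate was left out. The REST-bound LMR near A430005L14Rik, at 40.1% ± 5.15 and 40.4% ± 3.22, and the St7 amplicon were also 2 of the 3 with the smallest change among amplicons at 20% to 80% on day 13. The other lies 78 bases from Fggy. With 2 CpGs it was at 31.1%, 24.7% and 29.2% and then at 15.4%, 42.7% and 19.3%, so the day 29 replicates enclosed those of day 13.

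By region class, all 9 classes of the deposited list had a lower mean at day 29, and in 6 of them no replicates overlapped. Constitutive LMRs (53 CpGs) were at 63.3%, 63.2% and 63.4% and then at 57.6%, 55.4% and 60.1%, -5.57 points. LMRs specific to stem cells (60 CpGs) were at 51.2%, 54.7% and 53.0% and then at 48.9%, 46.8% and 48.4%, -4.98 points. CTCF-bound LMRs (15 CpGs) changed by -4.86 points from 30.3% ± 2.01 to 25.4% ± 1.31, and REST-bound LMRs (98 CpGs) by -2.70 points from 20.6% ± 0.863 to 17.9% ± 0.736. The 4 LMR classes lay at intermediate levels and all were lower in every day 29 replicate. The same held for FMRs, with -3.22 points from 91.7% ± 0.685 (22 CpGs), and for LMRs specific to neuronal progenitors, which were highly methylated here, with -2.45 points from 93.7% ± 1.27 (39 CpGs).

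The other 3 classes had overlapping replicates. The UMRs (82 CpGs) were at 4.91%, 5.64% and 3.29% and then at 3.66%, 3.39% and 3.23%, a change of -1.19 points, which was -0.677 without day 13 replicate 2 and -1.85 without day 13 replicate 3. In the mock time course of TTKO cells the UMR mean was 4.61%, 4.62% and 4.71% on days 0, 13 and 17, whose samples held 1921854 to 2646547 reads. It was 3.37%, 3.62%, 4.26% and 3.43% on days 4, 8, 10 and 29, whose samples held 3427459 to 4706462 reads, so days 4 and 8 were near day 29, and the part of depth in the UMR change was not tested. A methylated UMR amplicon (6 CpGs) changed by -2.23 points, or by -1.42 without day 13 replicate 3. A methylated CpG island (12 CpGs) changed by -1.11 points, and by -2.38 to 0.439 when any 1 replicate was left out, with the highest value without day 29 replicate 1. The exact permutation p was 0.1 for each of the 6 classes without overlap, 0.3, 0.3 and 0.5 for these 3, and 0.15, 0.338 and 0.5 after Benjamini-Hochberg adjustment over the 9 classes. Bisulfite conversion was not tested here.

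**Figure D3:**
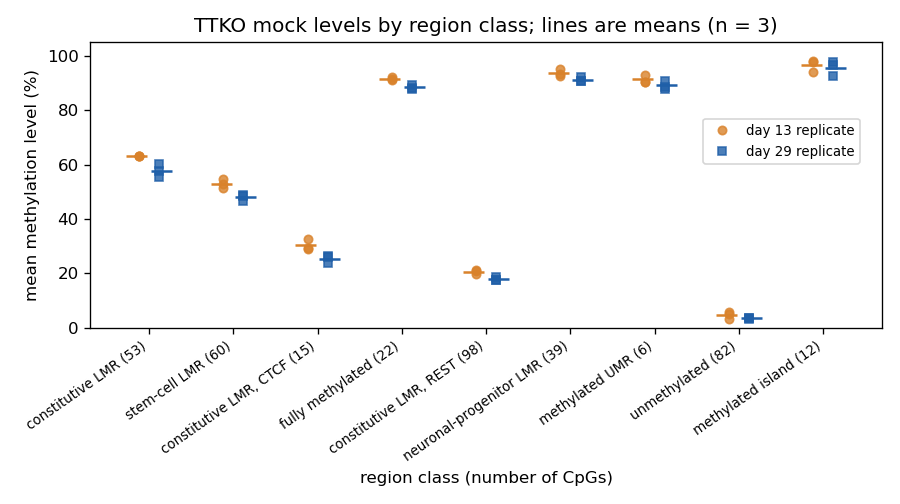
Mean methylation level (y axis, %) of each region class (x axis, with its number of CpGs) in the 3 day 13 replicates (orange circles) and the 3 day 29 replicates (blue squares), with lines at the means. Blue lies below orange without overlap in the 6 classes named in the text, and the replicates of the unmethylated, methylated UMR and methylated island classes overlap.

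The share of CpGs without overlap was 23.8% over all CpGs and is given by class as a description, with no test between classes. All day 29 replicates were lower at 19 of 53 constitutive LMR CpGs (35.8%), 11 of 39 in neuronal-progenitor LMRs (28.2%), 6 of 22 in FMRs (27.3%), 16 of 60 in stem-cell LMRs (26.7%) and 4 of 15 at CTCF sites (26.7%). It was 18 of 98 in REST-bound LMRs (18.4%), 14 of 82 in UMRs (17.1%), 2 of 12 in the methylated island (16.7%) and 2 of 6 in the methylated UMR (33.3%). At an unadjusted p under 0.05, 21 of 60 stem-cell LMR CpGs fell and 0 rose, beside 17.8% of all CpGs, and the 60 lie in 5 amplicons.

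The size of the change followed the level that the CpG had in non-transduced cells. Grouped by day 0 level, samples that the comparison did not use, the mean change was -1.42 points at 132 CpGs under 10%, -3.98 at 66 CpGs from 10% to 30%, -6.76 at 39 from 30% to 50%, -6.34 at 26 from 50% to 70%, -4.39 at 54 from 70% to 90% and -1.51 at 70 at 90% or more. On the log odds scale this shape was absent, and the median log2 odds ratio lay between -0.57 and -0.39 in all 6 groups. The share of CpGs that fell lay between 78.6% and 88.5%.

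What the CpGs share besides level was described over the 112 CpGs at 20% to 80% on day 0, without a test. CpGs with 1 to 2 CpGs within 100 bases (11 CpGs) changed by -8.86 points on average, those with 3 to 5 (40 CpGs) by -6.14 and those with 6 or more (61 CpGs) by -6.19. By the base before the CpG the mean changes lay between -7.00 after G and -5.57 after A, and by the base after it between -7.01 before G and -5.52 before T. On the log odds scale the median log2 odds ratios were -0.74 with 1 to 2 neighbours, -0.50 with 3 to 5 and -0.39 with 6 or more. All day 29 replicates were lower at 7 of 11 (63.6%), 14 of 40 (35%) and 15 of 61 (24.6%) of these CpGs. Beside this, the share was 33.3% of all CpGs at 30% to 50% on day 0 and 30.8% of those at 50% to 70%. The group with 1 to 2 neighbours holds few CpGs. Across the 112 CpGs the number of neighbours and the log2 odds ratio correlated with a Pearson coefficient of 0.05 and a Spearman coefficient of 0.09, where CpGs share amplicons and libraries. By placement, 114 intronic CpGs changed by -3.96 points, 197 intergenic ones by -2.99, 67 in coding exons by -2.55 and 9 in UTRs by -1.18, and these differ in level.

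The authors' passive demethylation rate, kDe, was inferred from the Cre time course together with the day 0 samples and not from these mock samples. Over 226 CpGs in the authors' low-noise class, the CpGs with the lowest log2 kDe (78 CpGs, at 89.3% on day 13) changed by -2.75 points, the middle group (73 CpGs, at 51.3%) by -4.40 and the highest (75 CpGs, at 32.3%) by -6.16. The change in points and log2 kDe correlated with r = -0.261 (Spearman's coefficient -0.294). The log2 odds ratio and log2 kDe had r = 0.114 (Spearman's coefficient 0.0731), and both are across CpGs that share libraries and differ in level. The median log2 odds ratios of the same groups were -0.49, -0.39 and -0.53, without an order from low to high kDe.

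Placed in the whole mock time course, day 13 was the highest time and day 29 the lowest in the mean over CpGs. This order did not hold in every class. FMRs were at 86.6% on day 0 and 88.5% on day 29, and stem-cell LMRs were highest on day 4 (54.6%). Over 373 CpGs with a level in every non-transduced and mock TTKO sample, the mean started from 40.8% ± 0.384 in non-transduced cells. In mock cells it was 41.5% ± 1.53 on day 4, 41.5% ± 1.09 on day 8 and 42.1% ± 0.399 on day 10. It then reached 42.9% ± 0.701 on day 13 and 42.8% ± 0.679 on day 17, and ended at 39.7% ± 0.714 on day 29 (all SD, n = 3). From day 0 to day 17, replicates of each pair of neighbouring times overlapped. For contrasts of 2 times, all CpGs with a level in the 6 samples compared were used, so these differences rest on other sets than the means above. Day 29 was lower than day 17 by 3.17 points (391 CpGs), than day 10 by 2.38 points (391 CpGs) and than day 8 by 1.89 points (383 CpGs), without overlap (exact permutation test, p = 0.1 each). Against days 4 and 0 the replicates overlapped, with changes of -1.88 points (385 CpGs) and -1.13 points (391 CpGs, exact permutation test, p = 0.2 each).

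The number of CpGs that fell also depended on the earlier time chosen. At an adjusted p under 0.05 (quasi-binomial model), 2 fell against day 10, 1 against day 17 and 0 against days 0, 4 and 8, and 0 rose in each. At an unadjusted p under 0.05, 58 of 391 CpGs fell and 9 rose against day 0, and 69 of 391 fell and 1 rose against day 17. Against day 4, 47 of 385 fell and 5 rose. The counts were 43 of 383 and 14 against day 8, and 63 of 391 and 4 against day 10. The contrasts share the day 29 samples. The day 0 level was nearer to the day 29 than to the day 13 level at 220 of the 387 CpGs (56.8%) and in 40 of the 62 amplicons. It was so at all 6 CpGs named for their small p-values, which were chosen from this contrast, such as the Zfp704 CpG (40.3% on day 0) and the Akap6 CpG (78.9%). The whole amplicons of the Arhgef15 and Ipcef1 CpGs were nearer to day 13.

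**Figure D4:**
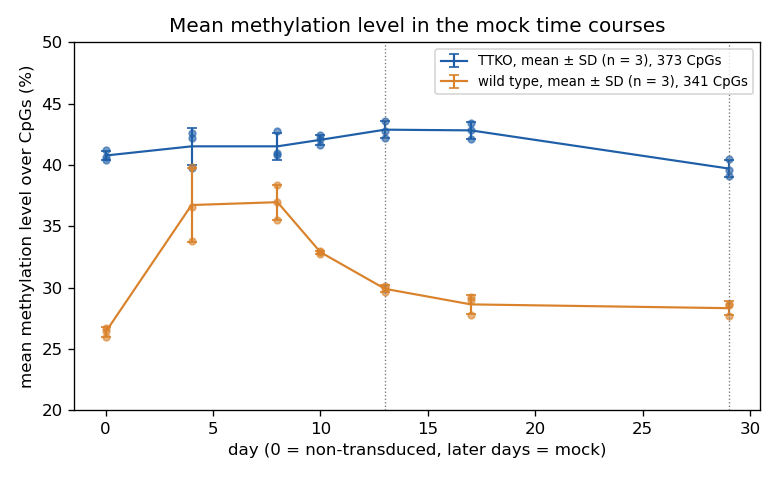
Mean methylation level over CpGs (y axis, %, shown from 20% to 50%) by day (x axis) in the mock time courses of TTKO cells (blue, 373 CpGs) and wild-type cells (orange, 341 CpGs). Lines join means, bars are SD of 3 replicates, points are replicates, and dotted lines mark days 13 and 29. The blue line ends at 39.7% on day 29 after 42.9% on day 13, and the orange line goes from 29.9% to 28.3%.

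Mock-treated wild-type cells were lower at day 29 than at day 13 too, but at another place in their time course. Over 341 CpGs their mean was 26.4% in non-transduced cells, 36.7% and 37.0% on days 4 and 8, 32.9% on day 10, 29.9% on day 13, 28.6% on day 17 and 28.3% on day 29. Their change thus came after higher levels on days 4 and 8, and all day 29 replicates lay above those of day 0. Over the 380 CpGs with a level in all 12 samples, wild-type cells changed by -1.61 points from 29.9% ± 0.267 to 28.3% ± 0.623, and TTKO cells by -3.18 points from 42.4% ± 0.710 to 39.2% ± 0.759 (SD, n = 3 each, and exact permutation p = 0.1 in each line). Relative to day 13 these are -5.38% and -7.51%. Levels were lower at 257 CpGs in wild-type cells (67.6%) and at 317 in TTKO cells (83.4%), and at 207 in both. A difference between the lines in the change was called at 0 CpGs in the interaction term of the quasi-binomial model with limma's moderated dispersion (smallest adjusted p 0.0990), and at 0 by limma on logit levels. At an unadjusted p under 0.05 the change was more negative in TTKO cells at 35 CpGs (9.21%) and less negative at 7. Without TTKO mock day 13 replicate 1 the adjusted count was 6 CpGs, and without day 13 replicate 3 it was 1. The mean over CpGs was lower in wild-type than in TTKO cells at both days, but not at every CpG, and the Tssc1 CpG was at 64.2% and 60.6% in wild-type cells beside 62.2% and 49.6% in TTKO cells.

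By class, the changes in both lines are set side by side without a test between classes. In stem-cell LMRs TTKO cells changed by -4.98 points from 53.0% and wild-type cells by 0.292 from 30.7%. In CTCF-bound LMRs the changes were -4.86 points from 30.3% and -0.592 from 10.9%. In constitutive LMRs they were -5.57 points from 63.3% and -5.59 from 29.7%. The lines thus started from different levels, and in TTKO cells the change in points followed the level. Of the 53 constitutive LMR CpGs 45 fell in wild-type cells. The 14 in the Col1a1 amplicon all did, by -22.4 to -3.93 points, beside -7.42 points for this amplicon in TTKO cells. Of the 60 stem-cell LMR CpGs 16 were more negative in TTKO cells at an unadjusted p under 0.05, beside 9.21% of all 380 CpGs, and 12 of the 16 lie in a single amplicon in Slx1b, an endonuclease subunit gene, at chr7:133835976-133836188, which was singled out after its values were seen. Its mean over 20 CpGs was 16.6%, 24.8% and 24.1% in the TTKO replicates at day 13 and 17.9%, 16.3% and 15.8% at day 29, so the groups overlapped (adjusted p = 0.0917, quasi-binomial model). In wild-type cells it was 11.1%, 11.4% and 10.7% and then 13.4%, 16.4% and 12.4%, without overlap. That is a rise of 3.00 points with 19 of its 20 CpGs higher, which enters the small positive class mean. Over the class, 23 of the 60 CpGs fell in wild-type cells. The CpGs of the Slx1b amplicon share their reads and are not independent. The Calhm2 CpG changed by -3.37 points in wild-type cells, from 40.6% to 37.2%, and the difference between the lines did not pass (log2 ratio of the odds ratios -0.65 ± 0.17, adjusted p = 0.187, quasi-binomial model).

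After Cre, TTKO cells fell further over the same days. Over 380 CpGs they changed by -6.77 points, from 31.6% ± 0.224 to 24.8% ± 0.200, beside -3.18 points in mock cells, which is -21.4% and -7.51% of the day 13 levels. In the interaction term of the quasi-binomial model with limma's moderated dispersion the change was more negative after Cre at 3 CpGs (0.789%) and less negative at 0, and limma on logit levels called 0. The count was also 0 when any 1 of the Cre day 29 replicates was left out. At an unadjusted p under 0.05 it was more negative at 57 CpGs (15%) and less negative at 4. In UMRs the change was -1.21 points after Cre, from 2.51%, and -1.19 points in mock cells, from 4.62%, where leaving out 1 mock replicate gave -1.85 to -0.677. At an unadjusted p under 0.05, 6 of the 82 UMR CpGs were more negative after Cre. Of the 3 called CpGs 1, at chr4:135690695 near Id3, lies in a UMR (adjusted p = 0.0148, quasi-binomial model). In CTCF-bound LMRs it was -4.78 points after Cre, from 15.3%, and -4.86 in mock cells, from 30.3%. No test compared the class means between the treatments. In neuronal-progenitor LMRs the change was -11.5 points after Cre and -2.45 in mock cells.

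**Figure D5:**
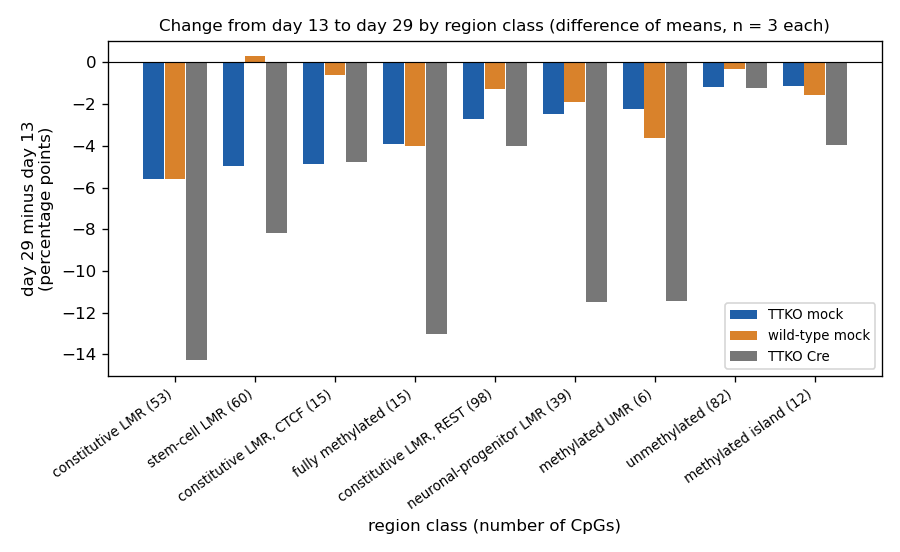
Change of the mean methylation level from day 13 to day 29 (y axis, percentage points) by region class (x axis, with its number of CpGs) in TTKO mock (blue), wild-type mock (orange) and TTKO Cre cells (grey), as differences of means of 3 replicates. All TTKO mock bars are negative, the wild-type bar of the stem-cell LMRs is slightly positive, and the grey bars reach furthest in constitutive LMRs and FMRs.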

How the data were processed

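DNA methylation was measured by amplicon bisulfite sequencing in mouse embryonic stem cells. The authors trimmed the reads, aligned them to mm9 with Rbowtie in QuasR and called levels with AmpliconBiSeq, and set levels at low coverage to missing. Coverage was deposited by the authors as a count of reads per CpG, without normalization. The methylation level was deposited as the fraction of these reads called methylated. The authors' inferred rates were deposited as log2 values and are used here as description only. The table of SureSelect capture samples holds no mock sample and was not used.

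Coverage times level was whole (within 1e-06) at 100% of values, so methylated and unmethylated reads were recovered. Each CpG, or the reads summed per amplicon, was fitted in R 4.3.3 with a quasi-binomial logistic model and tested on both sides, with 0.5 added to each count and a dispersion moderated with limma 3.58.1 and not under 1. P-values were adjusted by Benjamini-Hochberg over all CpGs or amplicons tested, with a threshold of 0.05. Changes were compared between lines and treatments with an interaction term. Means over CpGs were compared with exact permutation tests. The model was run on simulated counts, whose changes on the log odds scale were larger than the median change here. That run does not show how well changes of the size seen are found. Positions were placed on NCBIM37 and GENCODE M1 with python 3.11.15 and pandas 2.3.3, and figures were drawn with matplotlib 3.10.9.

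Named CpGs were those with an adjusted p under 0.05 and no overlap, up to the 12 largest changes, filled up to 6 by the smallest unadjusted p. Named amplicons were the 5 largest falls, the 5 largest rises and the 3 smallest changes at a day 13 level of 20% to 80%. The CpGs, lists and tests were chosen with earlier results of these data known. Groups and replicates come from the sample labels. The study's methods call the 3 replicates biological, without saying how their cultures were separated, and p-values measure the spread between these samples. The reads come from PCR and carry no molecular identifiers, so read numbers describe counting error only. Alternatives were other added counts, dispersions, coverage minimums, tests, weights and earlier days, a replicate block and leaving out each replicate.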

Additional observations from a re-analysis of the deposited data

Results flagged for a closer look

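The change from day 13 to day 29 differed between TTKO Cre and TTKO mock cells at 3 of 380 CpGs in the interaction term of the quasi-binomial model with limma's moderated dispersion, which tests the difference itself. The count ran from 0 to 5 when 1 replicate was left out, with 0 when any 1 of the Cre day 29 replicates was left out, and limma on logit levels called 0. The 3 CpGs were looked at after the test had called them. At chr13:107863525, in a constitutive LMR 39772 bases from 3830408C21Rik, Cre cells were at 34.2%, 28.0% and 35.6% on day 13 and 7.98%, 6.95% and 9.72% on day 29, and mock cells were at 67.9%, 69.4% and 63.1% and then at 63.1%, 62.9% and 73.3% (adjusted p = 0.0148). At chr4:135690695, in a UMR amplicon 8717 bases from Id3, which encodes an inhibitor of helix-loop-helix transcription factors, Cre cells went from 17.4% ± 0.863 to 4.24% ± 1.38 and mock cells from 33.4%, 37.9% and 29.3% to 26.5%, 28.9% and 26.2% (adjusted p = 0.0148). At chr19:47210207, in the Calhm2 exon, Cre cells went from 24.0% ± 5.58 to 11.5% ± 1.88 and mock cells from 41.1% ± 6.51 to 46.2% ± 0.463 (adjusted p = 0.0409). Cre cells were lower at day 29 at each of the 3 CpGs. Mock cells were lower in every day 29 replicate at the CpG near Id3, and their replicates overlapped at the other 2.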

How the results depend on the processing

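The fall of the mean over CpGs lay between -3.56 and -2.78 points when 1 replicate was left out, and was -4.28 points over CpGs with a mean level of 5% to 95%. Total methylated reads over total reads gave 0.225. The weighting by mean coverage, which gave -2.90, was chosen after seeing the data. Against days 0, 4, 8 and 10 the fall was -1.13, -1.88, -1.89 and -2.38 points. The single called CpG became 0 CpGs by limma on logit levels, on reads summed per amplicon and against days 0, 4 and 8, 2 against day 10, 5 with dispersions from all mock and non-transduced samples, which also left fewer CpGs to test (373 of 387), and 9 by limma on untransformed levels. It was 0 to 1 when 1 replicate was left out, and the 1 CpG called with unmoderated dispersions was another, near Tram1. Called amplicons were 0 to 4 when 1 replicate was left out and 1 with unmoderated dispersions. CpGs that differed from wild-type cells were 0 to 6, with 6 without TTKO mock day 13 replicate 1 and 1 without day 13 replicate 3, and those that differed from Cre cells 0 by limma on logit levels and 0 to 5 when 1 replicate was left out. The cause was not tested in these cases.

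Deviations of same-numbered replicates from their group means correlated across CpGs with r = 0.0151, 0.000552 and 0.0625 between the days, and day 13 replicate 2 correlated best with another number. The main fits therefore did not take replicate numbers as pairs. Low correlations do not show that the numbers mark different cultures. The study's methods fitted the replicates 1 by 1 over the days, and the labels do not say whether a number is 1 culture. With the block 2 CpGs (in Calhm2 and near Ipcef1), 11 amplicons and 5 CpGs that differed from Cre cells were called, and the sign-flip test of the mean gave p = 0.25 (exact, the smallest that 3 pairs allow). The amplicon 78 bases from Fggy then had a log2 odds ratio of 0.071, and no other call of these counts changed with the block.

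With 1 replicate left out, the class means changed by -6.75 to -4.42 points in constitutive LMRs, -5.58 to -3.71 at CTCF sites, -3.19 to -2.42 at REST sites, -5.86 to -4.13 in stem-cell LMRs, -3.63 to -2.87 in FMRs, -2.96 to -1.74 in neuronal-progenitor LMRs, -1.85 to -0.677 in UMRs, -3.05 to -1.42 in the methylated UMR and -2.38 to 0.439 in the methylated island, which turned without day 29 replicate 1. Of the named amplicons, 6 of little change turned in sign. Their log2 odds ratios without 1 replicate ran from -0.10 to 0.30 near Otor, -0.16 to 0.16 near A430005L14Rik, -0.054 to 0.51 near Tcerg1l, -0.20 to 0.28 in St7, -0.19 to 0.41 in Zbtb20 and -0.79 to 0.56 near Fggy, and limma gave -0.014 in Zbtb20. Of 60 refits of named CpGs 53 kept direction and side of the threshold, 6 lost the call and 1 gained it.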
